A study of Mus musculus with 56 samples.

Results

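Receptors for the constant (Fc) part of immunoglobulin G were followed across every preparation of mouse microglia in the series. The set holds 7 genes chosen by symbol and not by a filter on their values, but with earlier results of these data known. It holds the activating receptors Fcgr1, Fcgr3 and Fcgr4, their shared signalling chain Fcer1g and the inhibitory receptor Fcgr2b. It also holds the neonatal Fc receptor chain Fcgrt, and Fcrls, an Fc receptor-like gene. These are 7 of 23418 genes in the table of bulk counts, 7 of 23356 symbols in the TMRM tables and 7 of 27933 symbols in the single-cell matrix. Each of the 7 passed the filter on low values in each of the 6 comparisons below.

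The 56 samples were microglia, the resident macrophages of the brain. Wild-type B6 microglia taken at postnatal day 5 to 8 were grown for 7 to 9 days with M-CSF and left in medium (n = 7) or given IL-33, a cytokine released by stressed cells, at 200 ng/ml for 3 h (n = 7). GSK-J4, a histone demethylase inhibitor, is mentioned in the culture protocol as a pretreatment, without naming the cultures concerned. Cortical microglia of B6/129 Mapttm1(EGFP)Klt carriers, labelled postnatal day 10 (day 9 in the design text), were sorted into Tau-GFP plus (n = 8) and Tau-GFP negative cells (n = 8). In these mice GFP is made from the Mapt locus of neurons, so that GFP in a microglial cell is read as uptake. Cortical microglia of B6/C57 mice at postnatal day 9 were sorted by TMRM, a dye that gathers in polarised mitochondria, into high (n = 10) and low (n = 8) cells. Droplet single-cell libraries, which count the 3' ends of transcripts, came from the cortex of B6 mice in 4 groups of 2: wild type at day 9 (P9), wild type at day 28 (P28), and P9 mice labelled ST2 Het or ST2 KO for the IL-33 receptor. The labels do not say that replicates came from separate animals or cultures, so the p-values measure only the spread between these samples, which may be technical.

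Antibody-coated particles are recognised by Fc gamma receptors on phagocytes. Clustering of an activating receptor lets Src-family kinases phosphorylate the ITAM motif of Fcer1g, which docks the kinase Syk and starts uptake and cytokine release. Fcgr2b carries an ITIM motif instead, recruits the phosphatase Inpp5d (SHIP1) and restrains the same signal, so that the balance of the activating and inhibitory receptors sets the response of a macrophage. Fcgrt pairs with B2m inside endosomes and returns immunoglobulin G and albumin to the surface. Fcrls is used as a marker of resident mouse microglia.

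On GRCm38 (GENCODE M21), Fcgr2b (chr1:170958617-170976547, minus strand), Fcgr4 (chr1:171018920-171029761, plus strand), Fcgr3 (chr1:171051174-171064935, minus strand) and Fcer1g (chr1:171229572-171234365, minus strand) lie within 276 kb of chromosome 1. Fcgr1 (chr3:96282909-96293969) and Fcrls (chr3:87250758-87263738) lie on the minus strand of chromosome 3, and Fcgrt (chr7:45092990-45103851) on the minus strand of chromosome 7. Fcgr2b and Fcgr3 share sequence closely enough that reads can be hard to assign. Their transcripts Fcgr2b-201 and Fcgr3-201 have an identical coding stretch of 129 bases that spans the junction of exons 3 and 4, at chr1:170966674-170968081 in Fcgr2b and chr1:171054167-171057792 in Fcgr3, both on the minus strand. It is shown in capitals with 30 coding bases of each gene on either side, because it bears on every bulk value of this pair.
Fcgr2b: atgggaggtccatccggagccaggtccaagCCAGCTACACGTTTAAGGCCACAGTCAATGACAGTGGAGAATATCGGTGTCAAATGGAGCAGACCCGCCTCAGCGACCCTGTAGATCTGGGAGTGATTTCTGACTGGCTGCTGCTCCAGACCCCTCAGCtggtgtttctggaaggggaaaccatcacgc
Fcgr3: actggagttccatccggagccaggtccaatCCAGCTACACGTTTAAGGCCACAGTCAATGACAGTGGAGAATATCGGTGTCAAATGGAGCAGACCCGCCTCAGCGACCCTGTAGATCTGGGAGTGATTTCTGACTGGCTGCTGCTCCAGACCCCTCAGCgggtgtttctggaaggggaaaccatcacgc
Of the 1298 windows of 50 bases in Fcgr3-201, 166 (12.8%) also occur in Fcgr2b-201, and the same 166 make up 4.75% of the 3495 windows of Fcgr2b-201. No such window is shared by any other pair among Fcgr1, Fcgr2b, Fcgr3 and Fcgr4, whose longest common run is 14 bases. The bulk values of Fcgr2b and Fcgr3 are therefore uncertain to the extent that reads from this stretch were split between them. None of the shared windows lies in the last 500 bases of either transcript, which is the end that the single-cell assay counts.

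The bulk count libraries held between 7709047 and 11826389 expected counts. After filtering, 15335 cell barcodes were kept, of which 14406 fell into 14 microglia-like clusters, with 4080229 to 10547844 UMIs (unique molecules) a library. Of the barcodes, 274 carried a sequence that also occurred in another library. Freshly sorted cells had the microglial markers (a summed level of 9 markers of at least 20821 CPM in every Tau-GFP library), whereas the cultures had 3730 to 4992 CPM, with Siglech at 0 to 2 counts a library against 16753 to 23902 in Tau-GFP negative cells. The libraries labelled ST2 KO held 30 and 28 UMIs of the targeted gene Il1rl1 (7.35 and 6.17 CPM) against 37 and 46 in those labelled ST2 Het (5.44 and 6.71 CPM). Whether the counted end lies outside the deleted part is not given in the sources used here, so these values check nothing about the labels.

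Among bulk values, levels of different genes can be set side by side only per unit of length, which the FPKM of the TMRM libraries give. In TMRM high cells the order was Fcer1g (1849 to 2186 FPKM over 10 libraries), Fcrls (1439 to 1764), Fcgr3 (571 to 648), Fcgr2b (151 to 194), Fcgrt (106 to 137), Fcgr1 (49.3 to 68.1) and Fcgr4 (11.5 to 25.8). The ranges of neighbours in that order did not overlap. In TMRM low cells Fcrls (median 1596, 1363 to 1703 FPKM) and Fcer1g (median 1508, 1419 to 1863) overlapped and changed places by their medians, and Fcgr2b (119 to 156) overlapped Fcgrt (119 to 159). In both groups the signalling chain was above each of the receptors that use it. The single-cell UMIs, which count 3' ends, ordered Fcgrt, Fcgr1 and Fcgr2b otherwise. In P9 wild type microglia-like cells Fcgrt had 341 to 352 CPM, Fcgr1 321 to 325 and Fcgr2b 124 to 133. Why the assays differ was not tested.

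TMRM high cells carried more of the low-affinity receptors and of the signalling chain than TMRM low cells. Fcgr3, Fcgr2b and Fcer1g were higher, 3 of the 7 genes where 20.4% of 10714 genes were called higher, and none was called lower where 9.84% were (30.3% in either direction). "Called" here means a Benjamini-Hochberg adjusted p under 0.05 over all genes tested, here by limma on log2(FPKM + 1). In a bulk sample, fewer cells of a type and less RNA per cell cannot be told apart. Fcgr3, the activating receptor that binds immune complexes, ran from 571 through a median of 608 to 648 FPKM in TMRM high libraries and from 431 through 478 to 516 in TMRM low libraries. The 10 high libraries all lay above the 8 low ones. The log2 fold change was 0.36 ± 0.04 (SE, adjusted p = 3.2e-06), and 6.85% of genes had groups that did not overlap.

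Fcer1g ran from 1849 through 1996 to 2186 FPKM in high libraries and from 1419 through 1508 to 1863 in low ones. The groups met only through the third TMRM low library, at 1863 FPKM, and the log2 fold change was 0.37 ± 0.05 (adjusted p = 2.2e-05). The inhibitory receptor Fcgr2b ran from 151 through 164 to 194 FPKM against 119 through 143 to 156, higher by 0.26 ± 0.06 (adjusted p = 0.0051), with each of 10 high libraries above the low median. The ratio of Fcgr3 to Fcgr2b ran from 3.28 through a median of 3.68 to 3.91 in high libraries. In low libraries it ran from 3.14 through 3.34 to 3.90. The ranges overlapped along nearly all of their length, with the higher median in the high libraries. Both receptors were higher in the TMRM high group.

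Fcgr1, the high-affinity receptor, was not called, with 49.3 through 58.4 to 68.1 FPKM in high and 57.1 through 63.1 to 72.1 in low libraries (-0.13 ± 0.06, adjusted p = 0.13). With each library centred on its median, Fcgr1 was called lower (-0.17, adjusted p = 0.024, where the alternatives span 0.024 to 0.17). Fcgrt was not called (-0.14 ± 0.06, adjusted p = 0.097), nor was Fcrls (0.06 ± 0.05, adjusted p = 0.48). Fcgr4, the receptor for IgG2 subclasses, had 11.5 to 25.8 FPKM in high and 15.3 to 23.7 in low cells (0.03 ± 0.12, adjusted p = 0.87), and its sign turned under some alternatives. Summed neutrophil markers were 0.184 to 752 FPKM in high and 606 to 2261 in low libraries, border-associated macrophage markers 186 to 289 against 106 to 185, and cell cycle markers 639 to 814 against 396 to 525. Monocyte markers were 3.58 to 16.4 against 15.2 to 61 FPKM, and choroid plexus markers 30.7 to 118 against 116 to 34348, the highest in the second TMRM low library. In each of the 18 fits that left out 1 library, that one included, the same 3 genes were called higher. Their part in these differences was not tested.

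Among 22 tested genes of the chain downstream of ITAM receptors, 2 were higher and 4 lower in TMRM high cells. Cdc42, a GTPase that remodels actin, rose from 223 ± 33 to 300.2 ± 20 FPKM (mean ± SD; log2 fold change 0.44 ± 0.08, adjusted p = 0.00021). The adaptor Card9 fell from 27.5 ± 5.5 to 16.5 ± 6 FPKM (-0.77 ± 0.20, adjusted p = 0.0062). Of 10 restraining genes 2 fell, the docking protein Dok3 (-0.63 ± 0.11) and Csk, the kinase that silences Src kinases (-0.40 ± 0.11). Of 8 other Fc-binding receptors and partner chains 3 rose and 1 fell. The ITAM chain Tyrobp rose from 2431 ± 275 to 3776 ± 224 FPKM (0.64 ± 0.06, adjusted p = 7.2e-08) and the inhibitory receptor Lilrb4 from 10.02 ± 1.95 to 53 ± 6.9 (2.30 ± 0.10). The lectin Siglech fell from 419 ± 19 to 291 ± 26 (-0.53 ± 0.06).

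**Figure D1:**
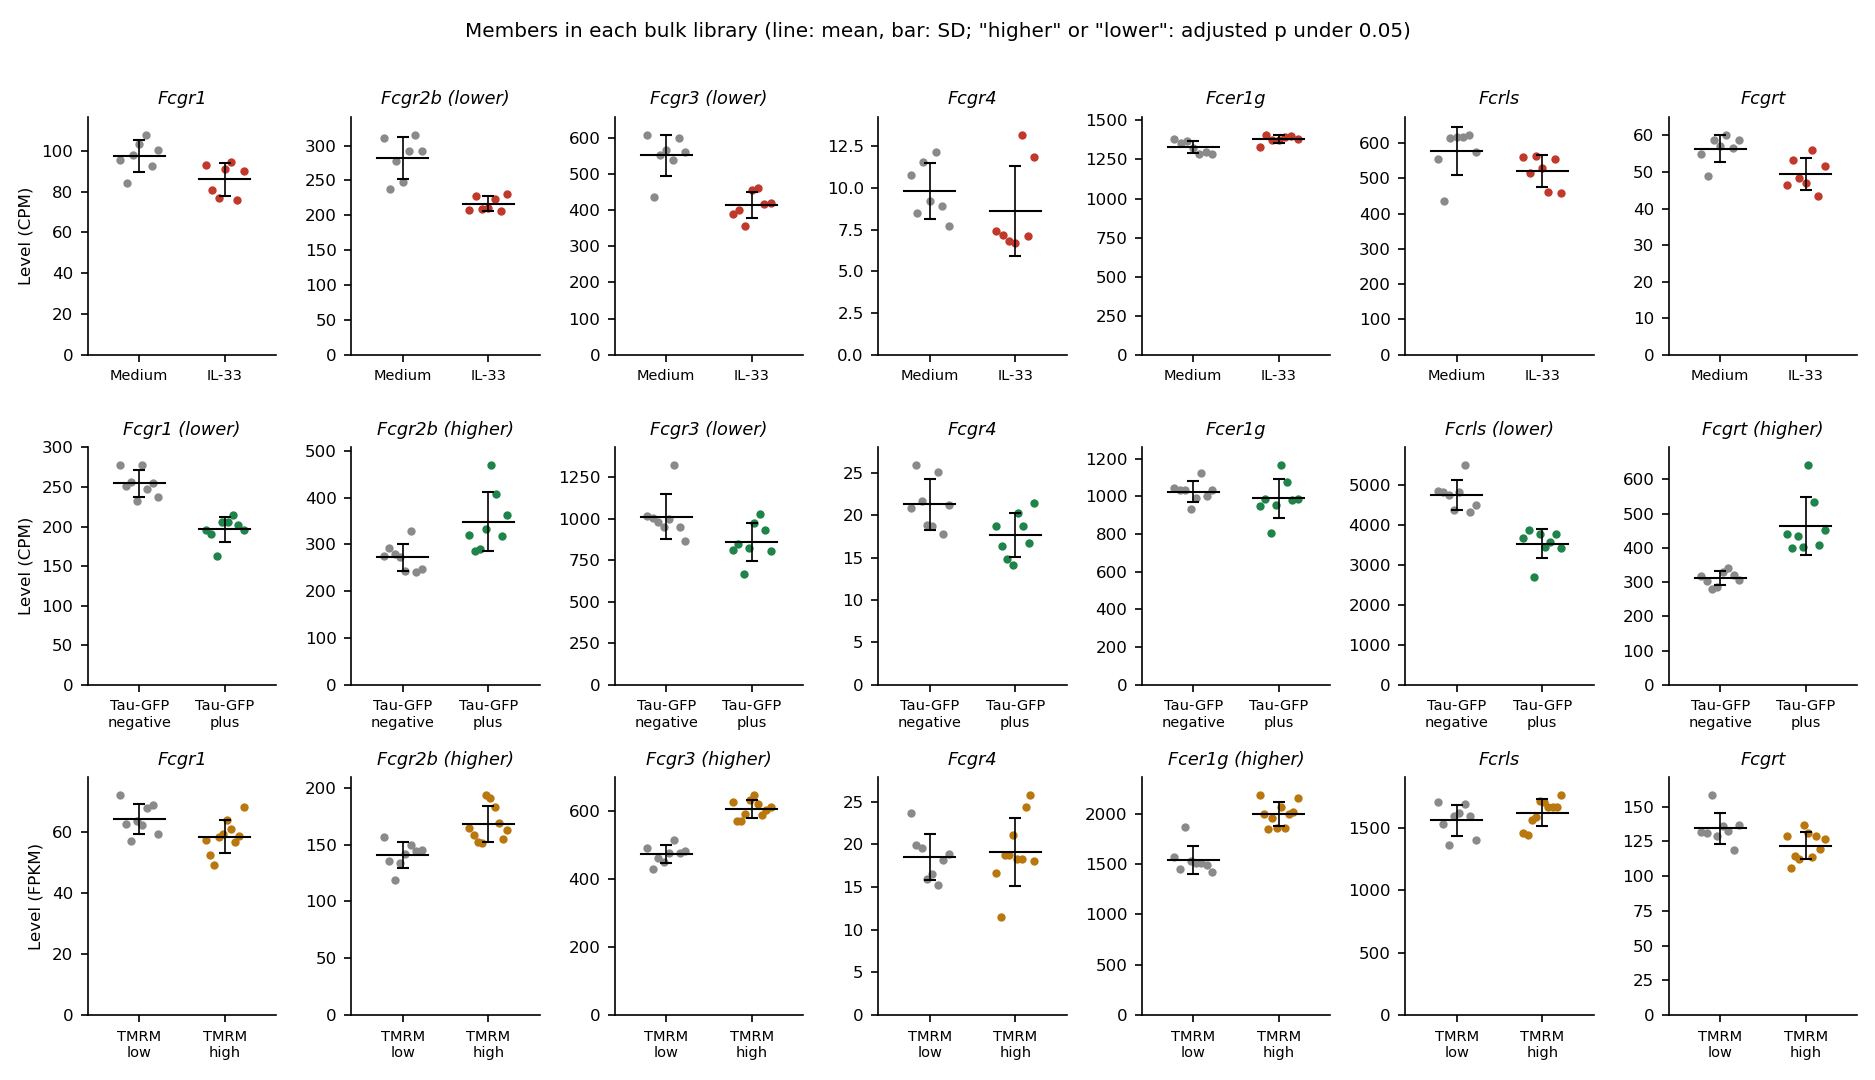
Level of each of the 7 genes (columns) in every bulk library, in CPM for the cultures (top row) and the Tau-GFP sorts (middle row) and in FPKM for the TMRM sorts (bottom row); each point is 1 library, lines are group means, bars are SD, and each y axis starts at 0. Fcgr2b and Fcgr3 fell together with IL-33 and rose together with TMRM, while in Tau-GFP plus cells Fcgr2b was higher and Fcgr3 lower.

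In Tau-GFP plus cells the set split. Fcgrt and Fcgr2b were higher than in Tau-GFP negative cells, and Fcgr1, Fcrls and Fcgr3 were lower by edgeR's quasi-likelihood test. These are 2 of 7 higher where 20.7% of 12137 genes were, and 3 of 7 lower where 16.9% were. Fcgrt ran from 399 through a median of 437 to 642 CPM in the 8 plus libraries and from 281 through 311 to 342 CPM in the 8 negative ones. The groups did not overlap, as was so for 11.3% of genes, and the log2 fold change was 0.58 ± 0.09 (adjusted p = 5.5e-05), or 1.49-fold.

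Fcgr2b ran from 286 through 326 to 470.2 CPM in plus and from 240.0 through 274 to 329 CPM in negative libraries. Each of 8 plus libraries lay above the negative median although the ranges overlapped (0.35 ± 0.10, adjusted p = 0.0073). Fcgr1 ran from 162 through 199 to 214 CPM in plus and from 232 through 253 to 278 CPM in negative libraries, with no overlap (-0.37 ± 0.06, adjusted p = 5.5e-05). Fcrls was also separate, at 2711 through 3626 to 3876 CPM against 4340.3 through 4792 to 5514 CPM (-0.43 ± 0.07, adjusted p = 8.7e-05).

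Fcgr3 lay at the edge of the test. It ran from 665 through 836 to 1028 CPM in plus and from 865 through 990.2 to 1325 CPM in negative libraries, and 7 of 8 plus libraries lay below the negative median (-0.23 ± 0.09, adjusted p = 0.045). The call was lost in 10 of the 16 fits that each left out 1 library, most of all without the sixth negative library (-0.17, adjusted p = 0.085), where the fits span 0.021 to 0.085. Fcgr4 was not called (17.7 ± 2.6 CPM in plus, 21.3 ± 3 in negative cells, -0.27 ± 0.11, adjusted p = 0.061), but was in 3 of those 16 fits, without the seventh negative, the fifth plus or the eighth plus library (-0.31 to -0.30, adjusted p = 0.035 to 0.047, where the 16 fits span 0.035 to 0.12). The shared chain Fcer1g differed by less than the spread between libraries (989 ± 104 against 1025 ± 55 CPM, -0.05 ± 0.06, adjusted p = 0.55). Its 95% interval reached from -0.17 to 0.07 on the log2 scale.

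The opposite directions of Fcgr2b and Fcgr3 show best in their ratio within each library. Fcgr3 was 2.08 to 2.97 times Fcgr2b in CPM in plus libraries (median 2.50) and 3.43 to 4.11 times in negative libraries (median 3.61). The ranges did not overlap. A ratio of CPM is not corrected for the lengths of the transcripts, so only its difference between groups can be read.

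Markers of another macrophage moved with these differences. The summed level of 8 markers of border-associated macrophages, which line vessels and meninges, was 4124 to 10117 CPM in plus and 1258 to 1623 CPM in negative libraries, and none of the 8 was at 0 in every library of either group. The defining markers Lyve1 (287 to 966 against 0 to 14.4 CPM), Cd163 (229 to 633 against 0 to 11.4) and Pf4 (377 to 1166 against 0.716 to 33.8) did not overlap. Summed microglial markers were 20821 to 31947 CPM in plus and 41559 to 50119 in negative libraries, and neuronal markers 55.7 to 144 against 2.7 to 8.52. Mural cell markers (49.1 to 354 against 6.59 to 44.1 CPM) and oligodendrocyte precursor markers (18.4 to 88.4 against 0.439 to 3.54) did not overlap either. Cell cycle markers were 1670.0 to 2497 against 1187 to 1684 CPM, and endothelial markers 54.2 to 2874 against 69.2 to 401. The part of these cells and transcripts in the changes of the Fc receptor genes was not tested.

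Downstream of the ITAM, 13 of 24 tested genes fell and 1 rose. Nckap1l, a scaffold of the actin machinery, fell from 1130.1 ± 93 to 802 ± 73 CPM (-0.50 ± 0.06, adjusted p = 1.0e-05), Prkcd, a kinase, from 438 ± 43 to 295 ± 66 (-0.57 ± 0.12), and Card9 from 56.1 ± 12.9 to 35.9 ± 4.7 (-0.64 ± 0.14). The median log2 fold change of the 24 was -0.30, beside 0.01 over all genes tested. Of 10 restraining genes 6 fell and 1 rose. Inpp5d, the phosphatase that Fcgr2b recruits, fell from 768 ± 61 to 547 ± 60 CPM (-0.49 ± 0.07, adjusted p = 2.6e-05), and the ubiquitin ligase Cbl by 0.48 ± 0.09, whereas the docking protein Dok2 rose from 5.9 ± 2.63 to 31.7 ± 13.5 (2.42 ± 0.28). Of 8 other Fc-binding or partner genes 1 rose, Lilrb4 (3.78 ± 2.06 to 24.4 ± 11.3 CPM, 2.70 ± 0.33), and 3 fell, among them Siglech (-0.80 ± 0.09) and Fcrl1, a B-cell type Fc receptor-like gene (-0.75 ± 0.13).

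**Figure D2:**
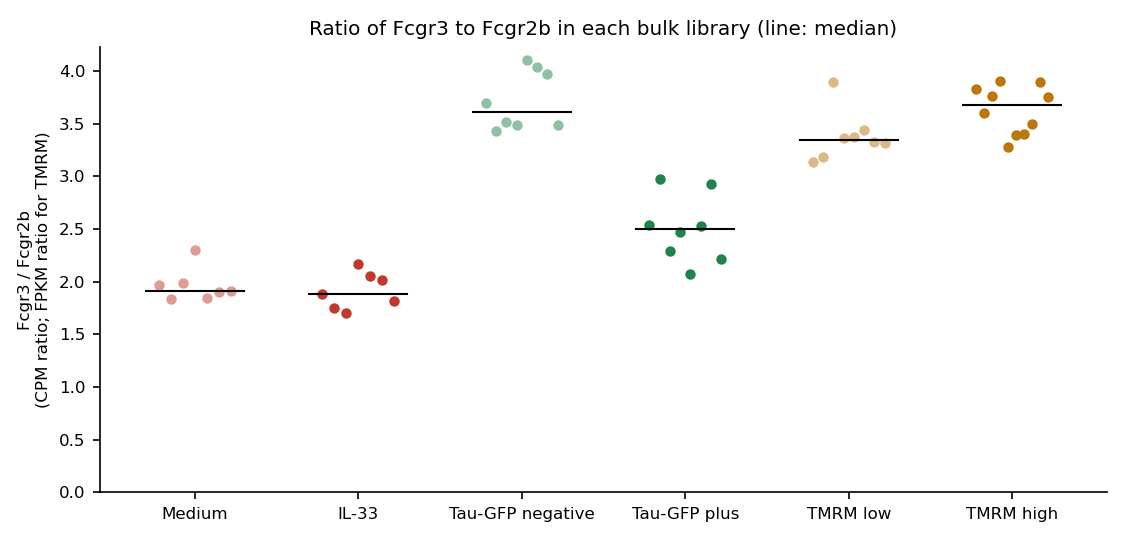
Ratio of Fcgr3 to Fcgr2b in each bulk library (y axis, a ratio of CPM in cultures and Tau-GFP sorts and of FPKM in TMRM sorts); each point is 1 library and lines are group medians. The Tau-GFP plus libraries (2.08 to 2.97) lie below all Tau-GFP negative libraries (3.43 to 4.11), IL-33 and medium overlap, TMRM high and low overlap, and the medium libraries (1.83 to 2.30) lie below the Tau-GFP negative ones.

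Both low-affinity receptors fell in cultures given IL-33. Fcgr2b and Fcgr3 were called lower, 2 of 7 genes where 3.5% of 10814 genes were, and none of the 7 was called higher where 4.21% were. Fcgr2b ran from 206 through a median of 210.5 to 231 CPM in the 7 IL-33 libraries and from 238 through 292 to 316 CPM in the 7 medium libraries. The groups did not overlap, as for 3.49% of genes, and the log2 fold change was -0.38 ± 0.06 (adjusted p = 0.00014), a level 1.30-fold lower. Fcgr3 ran from 357 through 416 to 461 CPM with IL-33 and from 437 through 559.9 to 609.8 CPM in medium (-0.42 ± 0.06, adjusted p = 0.00020). The groups overlapped only through the second medium library, at 437 CPM. The ratio of Fcgr3 to Fcgr2b stayed within the same range, 1.70 to 2.17 with IL-33 and 1.83 to 2.30 in medium.

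Fcer1g, the chain shared by the activating receptors, had 1381 ± 25 CPM with IL-33 and 1329 ± 40 in medium. It was not called (0.06 ± 0.03, adjusted p = 0.27), with a 95% interval from 0.00 to 0.11, although each of 7 IL-33 libraries lay above the medium median. Fcgr1 (86 ± 7.9 against 97.5 ± 7.7 CPM, -0.18 ± 0.06, adjusted p = 0.096), Fcgrt (49.5 ± 4.4 against 56.4 ± 3.8 CPM, -0.19 ± 0.06, adjusted p = 0.073) and Fcrls (521 ± 45 against 578 ± 67 CPM, -0.15 ± 0.07, adjusted p = 0.24) were not called either. In each of these the 7 IL-33 libraries lay below the medium median. These calls turned on the second medium library: without it Fcgr1 (-0.21, adjusted p = 0.033), Fcgrt (-0.22, adjusted p = 0.023) and Fcrls (-0.21, adjusted p = 0.011) were called, making 5 of 7 lower. Over the 14 fits that left out 1 library, their adjusted p spanned 0.033 to 0.19, 0.023 to 0.15 and 0.011 to 0.40, and Fcgrt was also called without the fifth IL-33 library (adjusted p = 0.032). Fcgr4 had the fewest expected counts of the 7 genes, 54 to 131 a library, and was not called (8.62 ± 2.72 against 9.85 ± 1.68 CPM, adjusted p = 0.61).

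Of 24 tested genes downstream of the ITAM 8 rose, 16 were not called and none fell (median log2 fold change 0.06, beside -0.01 over all genes). The kinase Fgr rose from 46.1 ± 8.3 to 74.6 ± 5.6 CPM (0.70 ± 0.09, adjusted p = 1.4e-05), Src from 8.69 ± 1.73 to 15.1 ± 1.3 (0.80 ± 0.12) and Syk, the kinase that docks on Fcer1g, from 79.5 ± 10 to 110.4 ± 11.4 (0.47 ± 0.08, adjusted p = 0.00032). Of 10 restraining genes 1 rose, the phosphatase Ptpn6 (0.15 ± 0.03, adjusted p = 0.0053), and 1 fell, Inpp5d (234 ± 12 to 205 ± 11 CPM, -0.19 ± 0.04, adjusted p = 0.0071). Of 7 other Fc-binding or partner genes, Lilrb4 rose from 939 ± 33 to 1121 ± 66 CPM (0.26 ± 0.04) and none fell. Microglial markers summed to 3730 to 4567 CPM with IL-33 and 4576 to 4992 in medium, without overlap. Border-associated macrophage markers summed to 1782 to 2187 CPM with IL-33 and 1497 to 2359 in medium. In each group 3 of these 8 markers had a mean under 1 CPM, and Lyve1 was at 0 in every IL-33 library. Their part was not tested.

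With age, Fcgr2b, Fcgr3 and Fcgr1 rose and Fcgrt fell. UMIs were summed per library over microglia-like cells, and P28 was compared with P9 by edgeR in a fit of all 8 single-cell libraries. Fcgr1, Fcgr2b and Fcgr3 were higher at P28 and Fcgr4, Fcer1g and Fcgrt lower, 3 and 3 of 7 where 27.5% and 26.2% of 11597 genes were, so that calls are common in this comparison. Groups of 2 did not overlap for 78.3% of genes. Fcgrt had 135 and 141 CPM in the P28 libraries and 352 and 341 CPM at P9, a log2 fold change of -1.33 ± 0.05 (adjusted p = 4.6e-10), or 2.51-fold lower. After each cell was thinned to 1000 UMIs, Fcgrt was seen in 12.9% (95% Clopper-Pearson interval 11.7 to 14.2) and 13% of P28 cells. At P9 it was seen in 29.5% (27.7 to 31.3) and 26.3% of cells. Such intervals cover only the sampling of cells within a library. Without thinning the shares were 28.6% and 28.9% against 68.8% and 67.9%, and median depth was 2296 and 2232 UMIs a cell at P28 and 3831 and 4066 at P9.

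Fcgr2b had 205 and 219 CPM at P28 against 124 and 133 CPM at P9 (0.72 ± 0.06, adjusted p = 6.3e-07). Fcgr3 had 1698 and 1701 CPM against 1216 and 1162 CPM (0.52 ± 0.05, adjusted p = 7.4e-07). Both receptors were thus higher in each P28 library than in either P9 library. Fcgr1 had 374 and 376 CPM against 325 and 321 CPM (0.22 ± 0.05, adjusted p = 0.0034).

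Fcgr4 had 16 and 16.8 CPM at P28 (121 and 125 UMIs) against 24.2 and 23 CPM at P9 (-0.52 ± 0.12, adjusted p = 0.0019). Fcer1g had 3358 and 3423 CPM against 3613 and 3736 CPM (-0.12 ± 0.04, adjusted p = 0.020). Its call was lost in 3 of the 4 fits that left out 1 library, without either P28 library or the second P9 library (adjusted p = 0.10 to 0.28, over fits that span 0.019 to 0.28). Fcrls was level at 2923 and 2915 against 2961 and 2781 CPM (0.02 ± 0.04, 95% interval -0.05 to 0.10).

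The summed cell cycle markers were 2354 to 2436 CPM at P9 and 136 to 145 CPM at P28, and neutrophil markers 2.09 to 5.7 against 55.9 to 90.8. Microglial markers were 21166 to 21987 CPM at P9 and 29159 to 29517 at P28, border-associated macrophage markers 446 to 457 against 327 to 329, and astrocyte markers 36.3 to 37.1 against 183 to 185. The part of these other lists was not tested. Without the clusters that had at least 2 times the median level of those markers, an alternative chosen after seeing the data, 3 of 7 genes were still higher and 3 lower. Fcgr3 then differed by 0.32 (adjusted p = 4.8e-05, where the alternatives span 6.3e-27 to 4.8e-05), Fcgr2b by 0.62 and Fcgrt by -1.46. Of 23 tested genes downstream of the ITAM 11 were higher and 4 lower at P28. Src rose from 3.69 ± 0.12 to 16.5 ± 1 CPM (2.16 ± 0.20, adjusted p = 1.2e-06), while Fyn fell from 28.2 ± 0.4 to 12.1 ± 1.2 (-1.21 ± 0.12) and Rac2, a GTPase of the phagocyte oxidase, from 437 ± 12 to 218 ± 8 (adjusted p = 6.5e-09). Of 10 restraining genes 5 were higher and 2 lower, and Inpp5d rose from 189 ± 7 to 382 ± 1 CPM (1.01 ± 0.06, adjusted p = 6.6e-09) alongside Fcgr2b. Dok1 (0.53 ± 0.08) and Cbl (0.48 ± 0.08) rose too. Of 10 other Fc-binding or partner genes 7 rose and none fell, among them Fcrl1 (21.3 ± 2.8 to 53.6 ± 0.2 CPM, 1.33 ± 0.10), Siglech (0.56 ± 0.04) and the inhibitory receptor Sirpa (0.12 ± 0.05, adjusted p = 0.040).

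**Figure D3:**
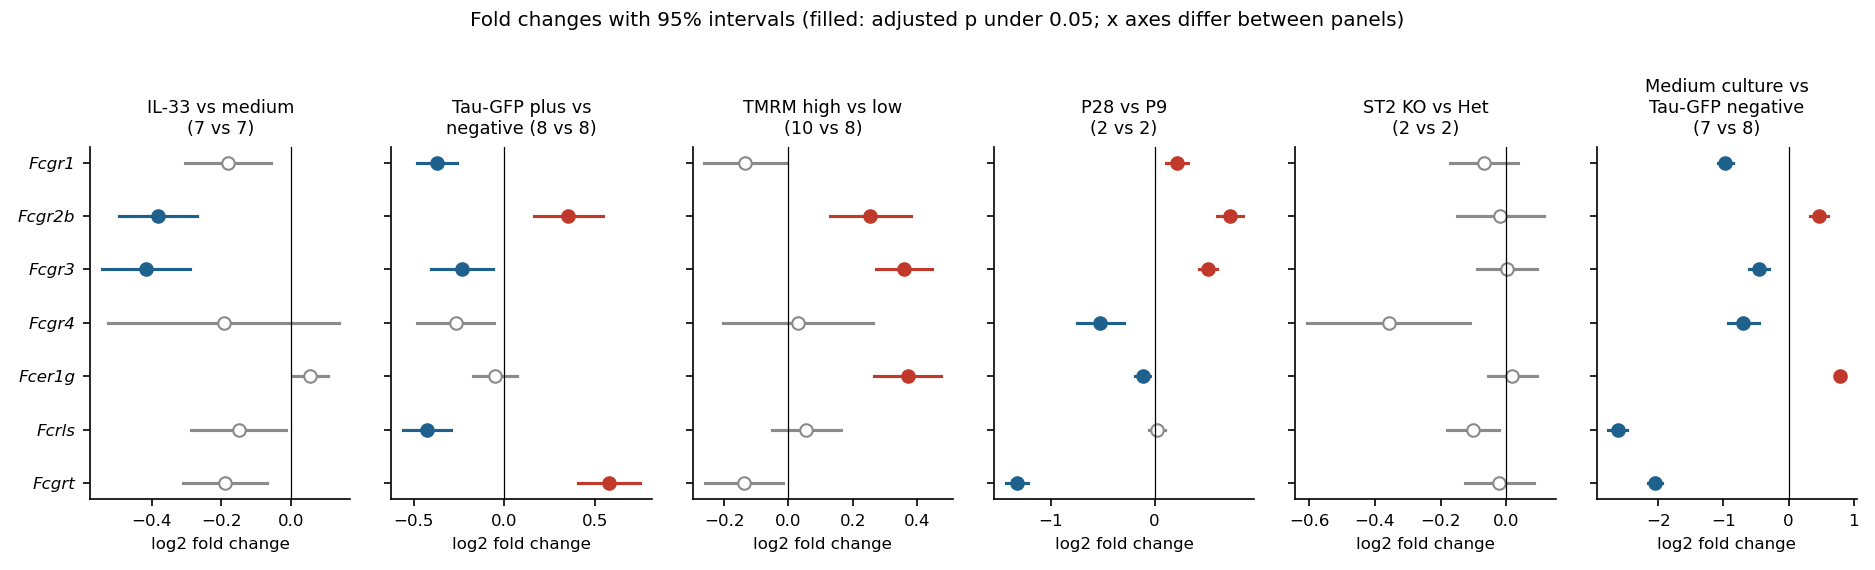
Log2 fold change (x axis, which differs between panels) of each of the 7 genes in each of the 6 comparisons, with 95% intervals from the SE; filled points are called at an adjusted p under 0.05, and panel titles give the number of libraries. Fcgr2b is called in 5 panels, higher in 4 of them and lower with IL-33.

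No change in the 7 genes was detected between the P9 libraries labelled ST2 KO and ST2 Het. None was called by edgeR, where 0.302% of 11597 genes were called higher and 0.293% lower (0.595% in all), and none by DESeq2. By edgeR 2 of the 7, Fcgr4 and Fcrls, had an unadjusted p under 0.05. Fcgr4 had 20.2 and 21.6 CPM (82 and 98 UMIs) in the libraries labelled KO and 28.9 and 24.7 CPM in those labelled Het (-0.36 ± 0.13, edgeR p = 0.015 unadjusted, adjusted p = 0.34). Fcrls had 2818 and 2946 against 3102 and 3085 CPM (-0.10 ± 0.04, edgeR p = 0.025 unadjusted, adjusted p = 0.41). For both, and for Fcgr1, the groups did not overlap, as for 37.7% of genes. The 95% intervals give a rough bound on what could have gone unseen. Fcgr4 lay within -0.61 to -0.11 and Fcrls within -0.18 to -0.02, both on 1 side of 0 before adjustment. Fcgr3 lay within -0.09 to 0.09 on the log2 scale, Fcer1g within -0.06 to 0.09 and Fcgr2b within -0.15 to 0.11. Fcgrt lay within -0.13 to 0.08 and Fcgr1 within -0.17 to 0.04. In levels, Fcgr3 had 1025 and 1069 CPM in KO-labelled and 1074 and 1016 CPM in Het-labelled libraries, and Fcgr2b 142 and 155 against 149 and 152 CPM. None of the 23, 10 and 10 tested genes of the activating, restraining and partner lists was called.

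Cultured microglia had less Fcrls and Fcgrt and more Fcer1g than freshly sorted cells. Against Tau-GFP negative cells, which differ from the cultures in strain background, age and sorting as well, so that these and culture cannot be told apart, medium cultures were lower in 5 of the 7 genes and higher in 2 (edgeR), where 39.8% of 11561 genes were lower and 38.2% higher (78% in all). The CPM of this comparison were scaled within it and differ from those above. Fcrls had 507 through a median of 709.7 to 716 CPM in culture and 3782 through 4150.0 to 4741 CPM in fresh cells (-2.63 ± 0.07, adjusted p = 2.3e-17), or 6.18-fold lower. Fcgrt had 56.6 through 65.4 to 69.2 against 244 through 269 to 294 CPM (-2.05 ± 0.06, adjusted p = 2.1e-17). Fcgr1 had 98 through 114 to 124 against 201 through 219 to 240.5 CPM (-0.97 ± 0.06), and Fcgr4 8.85 through 10.6 to 14 against 15.5 through 18.2 to 22.4 (-0.70 ± 0.12). No library of either group crossed into the other for these 4 genes, nor for Fcer1g and Fcgr3 below, where 52.7% of genes had separate groups.

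The shared chain went the other way. Fcer1g had 1476 through 1522 to 1598 CPM in culture against 807 through 896 to 968 CPM (0.79 ± 0.04, adjusted p = 8.4e-13). Fcgr2b had 276 through 335 to 361 against 209 through 236 to 283 CPM (0.46 ± 0.07, adjusted p = 7.8e-06), and Fcgr3 506 through 644 to 706 against 752 through 859 to 1139 CPM (-0.46 ± 0.08, adjusted p = 2.2e-05). Cultures thus had an Fcgr3 to Fcgr2b ratio of 1.83 to 2.30 and fresh cells one of 3.43 to 4.11. Of the downstream genes 7 of 24 were higher and 11 lower, with Fgr at 53.1 ± 9.7 CPM in culture and 1.11 ± 1.88 in fresh cells (5.62 ± 0.47) and Plcg1 at 5 ± 1.19 against 32.6 ± 3.3 (-2.70 ± 0.13). Of 10 restraining genes 6 were higher, Dok2 (3.79 ± 0.21) and Inppl1 (2.00 ± 0.16) most, and 3 lower, Inpp5d among them (665 ± 50 to 270.1 ± 15 CPM, -1.30 ± 0.05). Of 9 other Fc-binding or partner genes 4 were higher, with Lilrb4 at 1082 ± 37 against 3.27 ± 1.79 CPM (8.39 ± 0.21), and 5 lower, Fcrl1 among them (-2.01 ± 0.15).

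The single-cell libraries place these genes among cell classes. Classes came from clustering the same cells, with the 7 genes left out of the variable genes, so their levels are a description with no test, in CPM of the summed UMIs. At P9, border-associated macrophage-like cells of wild-type mice (247 and 225 cells) carried more Fcgrt and Fcgr2b than microglia-like cells of the same libraries and less Fcrls. Fcgrt was 1173 and 1075 CPM in these macrophage-like cells and 342 and 328 CPM in microglia-like cells. Fcgr2b was 455 and 369 against 121 and 128 CPM, Fcrls 1275 and 1218 against 2882 and 2671 CPM, and Fcer1g 4758 and 4668 against 3518 and 3588 CPM. Fcgr3 was close in both classes, at 1281 and 1189 against 1184 and 1116 CPM. Fcgr1 was 242 and 249 against 317 and 308 CPM. In the ST2 Het libraries, with 24 and 20 macrophage-like cells, Fcgr1 went the other way (424 and 381 against 329 and 356 CPM). The second ST2 KO library did so too (371 against 327 CPM, 20 cells), but not the first (203 against 316 CPM, 15 cells).

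At P28, with 51 and 45 macrophage-like cells, Fcgrt and Fcgr2b were higher in them and Fcrls and Fcgr1 lower, as in P9 wild type. Fcgrt was 574 and 577 CPM in them and 138 and 142 in microglia-like cells, so the level was lower at P28 than at P9 in both classes. Fcgr3 was 1258 and 1241 CPM in macrophage-like cells at P28, near its P9 level, and 1735 and 1718 CPM in microglia-like cells, and was thus lower in the macrophage-like cells there. Fcer1g was 3382 and 3816 against 3430.2 and 3457 CPM, with the libraries on opposite sides. A cluster of 90 cells led by S100a8, S100a9 and Ngp, which also held monocyte and MHC class II genes, had Fcgr4 at 51.7 and 77 CPM at P28 against 16.4 and 16.9 CPM in microglia-like cells. These values rest on 8 and 12 UMIs in 5 of 38 and 5 of 34 cells. At a clustering resolution of 0.5 the P28 macrophage-like class had Fcgr4 at 34.2 CPM on average, against 11.9 CPM at a resolution of 1. A cluster led by the endothelial genes Cldn5 and Itm2a still had Fcer1g at 2655 and 1265 CPM and Fcrls at 1005 and 542 CPM at P9. It scored as high on the neuronal marker list as on the endothelial one, so it may be mixed. Endothelial cells are not known for Fcer1g and Fcrls, and free RNA and mixed droplets cannot be told apart from the cells' own RNA here.

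**Figure D4:**
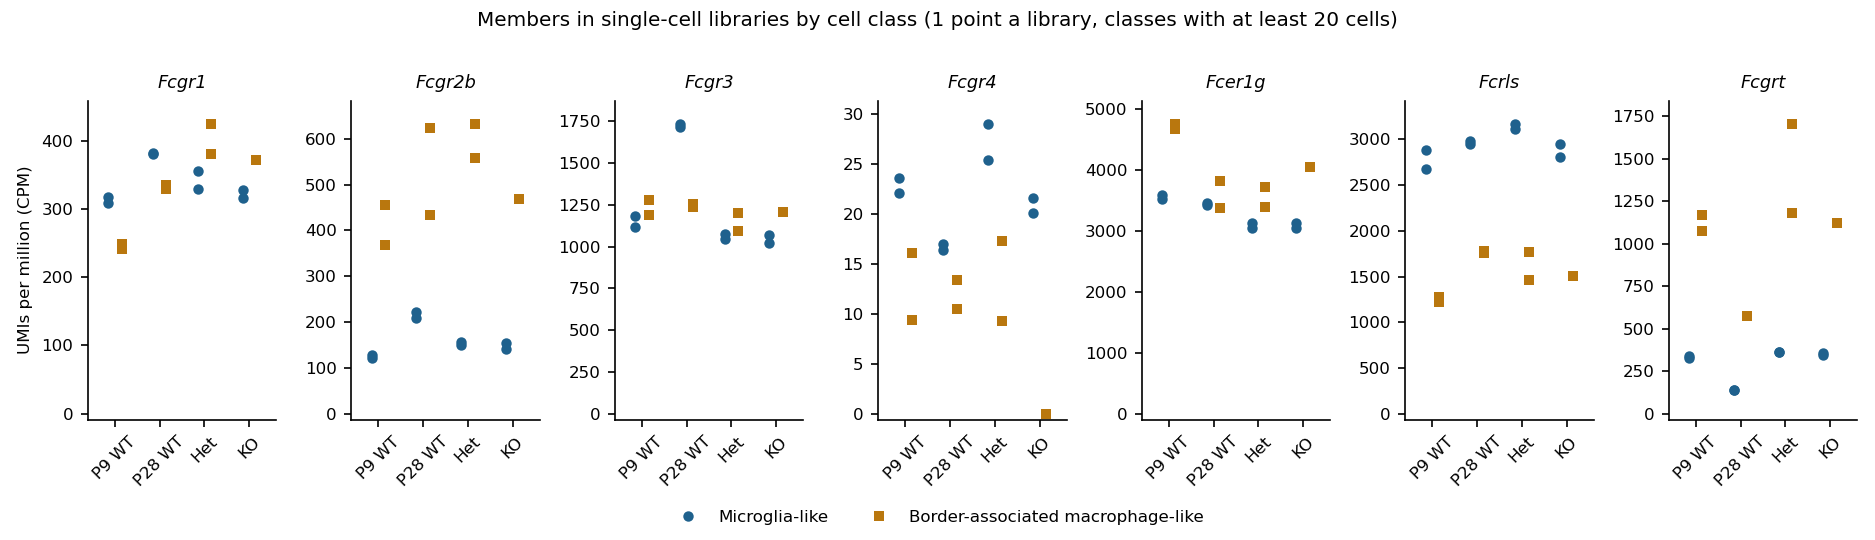
CPM (from UMIs) of each of the 7 genes in microglia-like cells (circles) and border-associated macrophage-like cells (squares) of each single-cell library with at least 20 such cells; x axis groups are wild type at P9 and P28 and the P9 libraries labelled ST2 Het and KO. Fcgrt and Fcgr2b lie higher in macrophage-like cells and Fcrls lies higher in microglia-like cells of each library that has both.

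Within microglia-like cells, Fcgr1 was high in a cluster led by interferon-induced genes. A cluster of 192 cells led by Ifit3, Isg15 and Ifit1 was compared with the other microglia-like cells of the same library, in the 6 libraries with at least 10 of its cells. Fcgr1 was 1.61-fold (95% Poisson interval 1.31 to 1.97) and 2.09-fold (1.75 to 2.48) their level in the P28 libraries, 2.13-fold (1.598 to 2.79) and 2.60-fold (1.86 to 3.52) in P9 wild type, and 2.88-fold (2.31 to 3.53) and 3.23-fold (2.66 to 3.88) in ST2 Het. These intervals cover counting error only. At P28 that was 609 and 775 CPM from 61 and 64 cells, against 377 and 371 CPM in the other cells. Fcgr3 was 0.92 to 1.44-fold, above 1 in 4 of the 6 libraries and highest in P9 wild type, and Fcer1g 0.99 to 1.16-fold. Fcgr4 was above it in 4 of the 6 libraries, with 31 and 25 UMIs in 18 and 16 cells of the ST2 Het libraries (12.8 and 11.3-fold), 14 UMIs in 12 cells of the second P9 library and 9 UMIs in 64 cells of the second P28 library, and rested on 3 and 1 UMIs in the other two.

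The promoter of Fcgr1 is shown because the gene was above the other cells in each library compared for that cluster. Of the 7 promoters (RefSeq, GRCm38.p6, 250 bases before to 50 after the start), it alone holds the letters TTCNNNGAA, a form of the gamma-interferon activated site, as TTCCCAGAA, 109 bases before the start. In all, 8.47% of 27025 promoters of that length hold this motif, which reads alike on both strands. The promoter of Fcgr4, a gene also above the other cells in most libraries of that cluster on few UMIs, does not hold it. The second capital run, TTCCTC, is GAGGAA on the other strand, the core box of the myeloid factor PU.1, which 4 of the 7 promoters (Fcgr1, Fcgr3, Fcgr4 and Fcrls) and 28.3% of all promoters hold on either strand. The motifs do not overlap here, they were chosen with the sequences in view, and a match in letters is not a site.
Fcgr1 promoter, chr3:96293920-96294219, minus strand: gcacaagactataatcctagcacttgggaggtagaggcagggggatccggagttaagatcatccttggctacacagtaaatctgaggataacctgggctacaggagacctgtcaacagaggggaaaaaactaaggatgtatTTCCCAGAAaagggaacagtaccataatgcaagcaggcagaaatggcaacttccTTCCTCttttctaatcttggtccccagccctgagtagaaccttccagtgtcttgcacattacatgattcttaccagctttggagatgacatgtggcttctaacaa

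Fcgr3 was lower in a mitotic and a G1/S cluster than in the other microglia-like cells. Its level in the Ccnb2 cluster below and in a cluster led by Aurka and Prc1 is not given here. In a cluster whose leading genes included the mitotic genes Top2a, Ube2c and Mki67, Fcgr3 was 0.56 to 0.65 times the level of the other microglia-like cells in each of 6 P9 libraries, and Fcer1g 0.76 to 0.85 times, while Fcgr1 was 1.01 to 1.21 times. In the cluster led by the G1/S genes Dtl, Ung and Ccne2, Fcgr2b was 0.35 to 0.93 times that level, with 0.49 (55 UMIs) and 0.52 (56 UMIs) in wild type. Fcgr3 was 0.71 to 0.86 times there. The cluster led by Spp1 and Gpnmb, genes of a phagocytic state, had Fcgr3 at 1.20 to 1.43 times and Fcgr1 at 0.60 to 0.80 times the other cells, so these activating receptors parted within it. In a cluster led by Ccnb2 and histone genes, Fcgrt was 0.61 to 0.77 times. In the cluster led by Fos, Atf3 and Egr1, immediate early genes that tissue dissociation can induce, Fcer1g was 0.72 to 0.91 times in the 8 libraries.

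**Figure D5:**
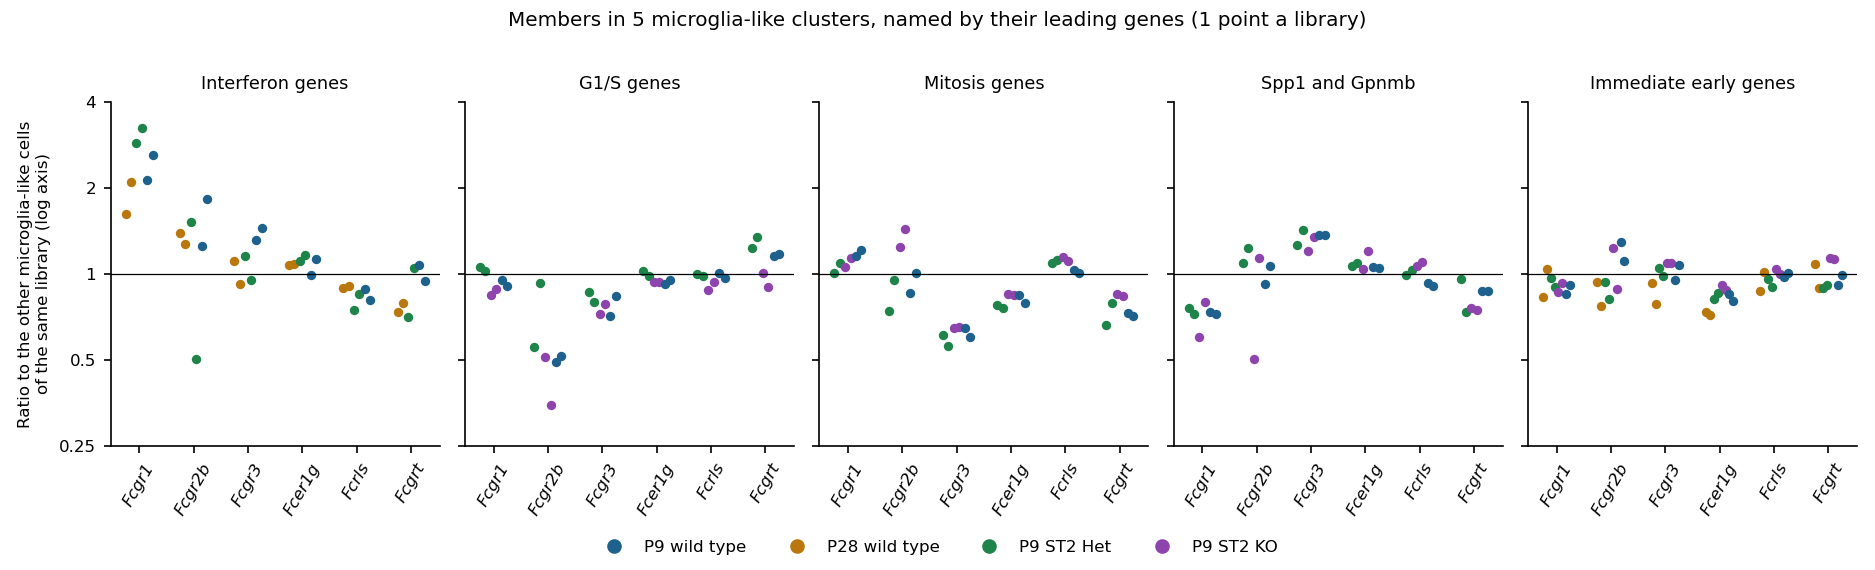
Ratio of each gene's level in a microglia-like cluster to that in the other microglia-like cells of the same library (y axis, log scale), for 5 clusters named by their leading genes; each point is 1 library with at least 10 cells of the cluster, coloured by group, and Fcgr4 is left out because of its few UMIs. Fcgr1 lies above 1 in each library of the interferon cluster, and Fcgr3 lies below 1 in each library of the mitotic cluster.

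Across libraries within a group, Fcgr2b and Fcgr3 varied together. After each group's mean of log2 CPM was subtracted, their Pearson r was 0.68 over the 30 bulk count libraries and 0.70 over the 18 TMRM libraries, given as a description, since both share the same libraries and the identical stretch. Fcgr2b and Fcgrt had 0.70 and 0.10. Fcgr1 and Fcrls had 0.40 and 0.78. Among 6825 genes, those most like Fcgr3 were C1qa (0.85), Lrrc33 (0.82) and C1qb (0.81), of which the complement genes had only 0.12 and 0.11 in the TMRM libraries. Those most like Fcrls were Csf1r (0.87), Abhd15 (0.83) and Ifngr1 (0.82), and here the TMRM libraries gave 0.62, 0.40 and 0.61. Those most like Fcer1g were Hexa (0.87), Npc2 (0.85) and Cyba (0.84), with 0.20, -0.15 and 0.55 in the TMRM libraries. Fcgr1 was most like Spata5 (0.73), Ctso (0.71) and B3galnt1 (0.70), Fcgr2b like Mgat1 (0.77), Pepd (0.76) and Tmem106a (0.76), Fcgrt like Blvrb (0.80), Dab2 (0.78) and Lamtor2 (0.77), and Fcgr4 like Tmem37 (0.56), G530011O06Rik (0.55) and Vrk3 (0.55). Of these 12, Spata5 gave 0.51 and Tmem37 0.43 in the TMRM libraries, and the others -0.44 to 0.25 where measured.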

How the data were processed

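The bulk cultures and Tau-GFP sorts were deposited as 1 table of expected counts, made by the authors with Bowtie2 and RSEM on mm10, per the submitters' processing notes. Its 5 columns that match no labelled sample were not used, and 27 date-like symbols held 0.134% of the counts. The TMRM sorts were deposited as FPKM that the authors made with TopHat2 2.0.10 and Cufflinks 2.0.2, per the same notes, with DESeq2 also named. The single cells were deposited as counts of UMIs from Cell Ranger. Other versions are not given in the sources. In 1 library, TMRM high 8, 500 symbols had no value.

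Expected counts were rounded and fitted with edgeR 4.0.16 (R 4.3.3; TMM scaling, its filter on low counts, quasi-likelihood test), each bulk comparison on its own libraries and the summed UMIs of single cells in 1 fit of 8 libraries. FPKM were tested with limma 3.58.1 on log2(FPKM + 1), keeping genes whose mean was 1 FPKM or more. Fold changes on that scale understate the change of low genes, and the depth of these libraries is unknown here. The 95% intervals of fold changes reach 1.96 SE to either side, which is somewhat narrower than the tests themselves would give. Cells with 500 or more genes and a mitochondrial share of UMIs below 10% were clustered in scanpy 1.11.5 on 2000 variable genes, 30 principal components and 15 neighbours (Leiden resolution 1), with the 7 genes left out. No doublets were removed. Clusters were named from marker lists, and UMIs were summed per library. DESeq2 1.42.0, other scalings, filters, pseudocounts and resolutions, a replicate block and leaving out each library were alternatives. The scripts were tested on simulated data.

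The members, lists and tests were chosen with earlier results of these data known. Named were the 7 genes and, from each other list and comparison, up to 3 called genes with the largest change among those with a mean of at least 10 CPM or 5 FPKM, and for each of the 7 the 3 genes of highest correlation. A result that this rule would name is not reported here.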

Additional observations from a re-analysis of the deposited data

Results flagged for a closer look

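In each bulk group of 7 to 10 libraries, the lowest or highest value of each gene was set against the gap to its nearest neighbour (Dixon's criterion), which chance exceeds in about 1 in 20 groups. Of 42 such groups, 8 held a library that stood apart, in 4 libraries with 2 genes each. Medium library 2 was the lowest of 7 for Fcgr3, at 437 CPM with the next at 539, and for Fcrls, at 437 CPM with the next at 555. Tau-GFP plus library 3 was the lowest of 8 for Fcgr1, at 162 CPM with the next at 191, and for Fcrls, at 2711 CPM with the next at 3436. It also had the lowest summed microglial markers of its group, at 20821 CPM, and the highest endothelial ones, at 2874 CPM. Tau-GFP negative library 6 was the highest of 8 for Fcgr3, at 1325 CPM with the next at 1018, and for Fcrls, at 5514 CPM with the next at 4846. It had the highest microglial (50119 CPM) and border-associated macrophage (1623 CPM) marker sums of its group. TMRM low library 3 was the highest of 8 for Fcer1g, at 1863 FPKM with the next at 1569.7, and for Fcgrt, at 159 FPKM with the next at 137. It had the lowest neutrophil (606 FPKM) and microglial (7724 FPKM) marker sums of its group. The part of these marker levels in the values was not tested.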

How the results depend on the processing

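Fcgr2b kept its direction and call under every alternative run in the 5 comparisons where it was called, as did Fcgrt in Tau-GFP, age and culture and Fcgr1 in Tau-GFP, age and culture. Calls at the edge were Tau-GFP Fcgr3, lost with RLE size factors (-0.23, edgeR adjusted p = 0.052, range 0.011 to 0.052), age Fcer1g, lost without a low-count filter (-0.08, adjusted p = 0.085, range 0.00016 to 0.085), and IL-33 Fcgrt, called by DESeq2 (-0.19, adjusted p = 0.0496, range 0.0496 to 0.12). Centring the TMRM libraries gave 1 member lower, and a mean of at least 5 FPKM gave 688 genes lower. DESeq2 called 1796 genes higher with age. Leaving out 1 library gave 2 to 5 members lower with IL-33. The median of all genes under DESeq2 was 0.13 for Tau-GFP and -0.20 for culture, over the larger set of genes it tests.

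ST2 counts were small and moved most: 23 genes higher and 21 lower over all cells, and 256 and 112 without a filter. The 4 libraries alone gave 50 and 27, and 260 and 85 with a replicate block. With 1 library left out the counts were 13 to 121 and 11 to 35. The reversed values all lay near 0. For age, Fcrls was -0.01 by DESeq2 (-0.0089), -0.0065 with RLE, -0.018 in the 4 libraries, -0.017 with the replicate block, -0.013 without clusters high in cell cycle genes, and -0.023 to 0.068 with 1 library left out. For ST2, Fcgr2b was 6.4e-05 over all cells, Fcgr3 -0.0070 without a filter and Fcgrt 0.015 without those clusters. With 1 library left out, Fcgr2b ran from -0.090 to 0.045, Fcgr3 from -0.040 to 0.048, Fcgrt from -0.044 to 0.0041 and Fcer1g from -0.021 to 0.061. TMRM Fcgr4 was -0.017 with the replicate block in libraries 1 to 8, -0.0056 after centring and -0.017 to 0.104 with 1 library left out. Fcrls in macrophage-like cells at P9 had a mean of 1200.4 CPM at a resolution of 0.5. The causes were not tested.

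Replicate numbers were not taken as pairs in any comparison, since over all of them not every same-numbered pair correlated over 0.1. For IL-33 2 of 7 did, for Tau-GFP 6 of 8 (median r 0.16 against -0.02 for other numbers, 4 of 8 best with their own number) and for TMRM 2 of 8. With 2 libraries a group both pairs have the same r, which was 0.013 for age and 0.104 for ST2. The ST2 pairs were thus over 0.1. With the replicate block, 472 genes rose and 401 fell with IL-33, Fcgr1 among them (-0.18, edgeR adjusted p = 0.039, range 0.039 to 0.13), and 2445 and 2090 for Tau-GFP. With the block and fewer libraries at once, 1512 and 791 were called for TMRM (libraries 1 to 8) and 3174 and 3413 for age (4 libraries, which gave 3116 and 3371 without the block). The bulk comparisons left out libraries as an alternative added after seeing the data. Fcgr4 had the fewest counts of the 7 genes, at 54 to 131 a library in IL-33 cultures.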
